A study of Rattus norvegicus with 8 samples.

Results

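Ribosome biogenesis and nucleolar genes were examined in peritoneal macrophages of rats treated with carbon nanotubes. They are 45 genes listed by name for their role in making ribosomes, with earlier results of these data known, and all 45 were found among the 23487 genes of the count table. RNA was sequenced from macrophages sorted by flow cytometry from the peritoneal cavity of female Wistar rats that were 8 weeks old. One group of 4 rats had received MWCNT-XNRI-7 (CNT-7), needle-like multi-walled carbon nanotubes that cause mesothelioma in rats, and the other group of 4 rats had received tangled, non-mesotheliomagenic nanotubes (CNT-T). Particles were injected into the peritoneal cavity, and cells were collected 15 days later. Untreated rats were not analysed here, so that each difference lies between both particles. The labels number the CNT-7 rats 3, 5, 10 and 11 and the CNT-T rats 1, 2, 12 and 13.

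Ribosomes are assembled in the nucleolus. RNA polymerase I transcribes the precursor of the ribosomal RNA there, small nucleolar ribonucleoproteins (snoRNPs) guide its chemical modification, and assembly factors fold, cut and export the small and the large subunit. The pathway is known to be active in dividing cells, which must double their ribosomes before division, and many of its genes are known targets of the transcription factor Myc. Peritoneal macrophages are known to renew themselves by local division or to be replaced by monocytes. The libraries hold polyadenylated RNA, so that messenger RNAs of the pathway were measured and ribosomal RNA was not.

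Because the genes of this pathway share a known regulator, promoters were searched for the E-box CACGTG, the letters bound by Myc and Max, which read the same on both strands. RefSeq promoter sequences (assembly GRCr8, 250 bases before to 50 bases after the start of the gene) were matched by symbol for 43 of the 45 genes, Bop1 and Wdr43 having no entry. The E-box was found in 15 of these 43 promoters (34.9%), against 9.21% of the promoters of all genes tested and 6.42% of all promoters. Other genes of the pathway, outside the 45, held it in 30 of 119 promoters (25.2%), and cytosolic ribosomal proteins in 5 of 64 (7.81%). The 150 bases before the start are shown for 3 genes that did not overlap between the groups and hold no E-box there (Nop56, Gar1 and Rrp1b), for both genes that were lower in CNT-7 and hold one upstream of the start (Gnl3 and Utp20), and for Pes1, which holds one and did not pass the test. Each is written in the direction of transcription, and capitals mark the E-box.
Nop56, chr3:137930029-137930178, plus strand: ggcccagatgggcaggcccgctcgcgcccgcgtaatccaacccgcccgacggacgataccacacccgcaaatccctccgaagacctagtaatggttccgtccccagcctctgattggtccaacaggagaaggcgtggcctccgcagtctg
Gar1, chr2:221056750-221056899, minus strand: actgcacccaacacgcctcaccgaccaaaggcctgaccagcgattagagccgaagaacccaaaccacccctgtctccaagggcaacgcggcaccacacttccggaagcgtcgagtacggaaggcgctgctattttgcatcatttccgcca
Rrp1b, chr20:10122675-10122824, plus strand: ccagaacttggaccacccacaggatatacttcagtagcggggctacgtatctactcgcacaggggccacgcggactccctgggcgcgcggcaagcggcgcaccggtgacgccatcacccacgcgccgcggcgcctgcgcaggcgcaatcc
Gnl3, chr16:6219783-6219932, minus strand: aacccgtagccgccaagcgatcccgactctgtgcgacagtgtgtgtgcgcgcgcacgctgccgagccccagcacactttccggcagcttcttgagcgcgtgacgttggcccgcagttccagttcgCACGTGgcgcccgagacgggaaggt
Utp20, chr7:25102850-25102999, minus strand: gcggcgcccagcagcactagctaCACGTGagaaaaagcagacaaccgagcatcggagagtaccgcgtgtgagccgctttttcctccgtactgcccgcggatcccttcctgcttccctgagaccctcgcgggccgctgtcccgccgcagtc
Pes1, chr14:83074196-83074345, plus strand: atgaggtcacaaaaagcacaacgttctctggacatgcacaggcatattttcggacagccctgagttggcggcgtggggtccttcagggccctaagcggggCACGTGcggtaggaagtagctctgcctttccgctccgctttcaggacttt

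The E-box began 25 bases before the start in Gnl3, 127 bases before it in Utp20 and 50 bases before it in Pes1. It was found in 3 of the 10 promoters of genes that were lower in CNT-7 (Fbl, Gnl3 and Utp20) and in 12 of the 33 promoters of genes that did not pass the test. The late small subunit factors held it most often, in 5 of 6 promoters, and none of these 6 genes passed the test. A match describes letters in this window and no binding.

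Most of the 45 genes had slightly lower levels in macrophages from CNT-7 rats. In edgeR's quasi-likelihood test on the whole table, 10 of the 45 genes (22.2%) were lower in CNT-7 at an adjusted p-value under 0.10, where 14.0% of the 12124 genes tested were lower. No gene of the 45 was higher, where 13.9% of all genes were. At an unadjusted p-value under 0.05, 14 of the genes were lower and none was higher, against 16.5% and 16.7% of all genes. DESeq2 called 12 of the genes lower and none higher, against 11.1% and 11% of the 16667 genes it fitted. The 16667 genes include those with low counts, which are left out of the 12124 genes tested in edgeR. The shares under DESeq2 are therefore not directly comparable with those in edgeR. With no filter on low counts, edgeR called 9.74% of 16667 genes lower. The log2 fold change (CNT-7/CNT-T) was below 0 in 41 of the 45 genes (91.1%), against 48.9% of all genes. This was not particular to the 45 genes. It was also below 0 in 101 of 131 other genes of the pathway and in 64 of 70 entries for ribosomal proteins, both described below. The median log2 fold change of the 45 genes was -0.14, against 0.01 for all genes tested. All 45 values lay within 0.5 of 0, as did those of 9602 of the 12124 genes tested. The falls among the 10 genes were between 0.24 (Nolc1) and 0.42 (Gar1) on the log2 scale, and the standard errors of the 45 genes had a median of 0.10. All 45 genes passed the filter on low counts.

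These counts depended on the threshold and on the rats. With an adjusted p-value under 0.05, 3 genes (6.67%) were lower, Nop56, Gar1 and Rrp1b, below the 10.6% of all genes. The same 3 genes were those in which all 4 CNT-7 rats lay below all 4 CNT-T rats, again 6.67% of the genes against 12.6% of all genes tested, and in no gene did the groups lie apart in the other direction, as they did in 12.3% of all genes. Without CNT-7 rat 3 or CNT-T rat 13 the test called 4 of the genes lower, against 11.7% and 12.6% of all genes. Without CNT-7 rat 5, CNT-T rat 2 or CNT-T rat 12 it called 3 of them, against 10.9%, 11.2% and 10.6%. Without CNT-7 rat 10 or 11 or CNT-T rat 1, the number was 14, 12 or 11, against 11.9%, 14.4% and 13.5%. Nop56 and Rrp1b were called in all 8 fits that left out a rat. With all rats, the share of the genes that passed the test was thus above that of all genes at the threshold of 0.10 and below it at 0.05. With a rat left out, the share at 0.10 depended on the rat. It was below that of all genes in every fit that called 3 or 4 of the genes. It was above that of all genes in the fits that called 11, 12 or 14.

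**Figure D1:**
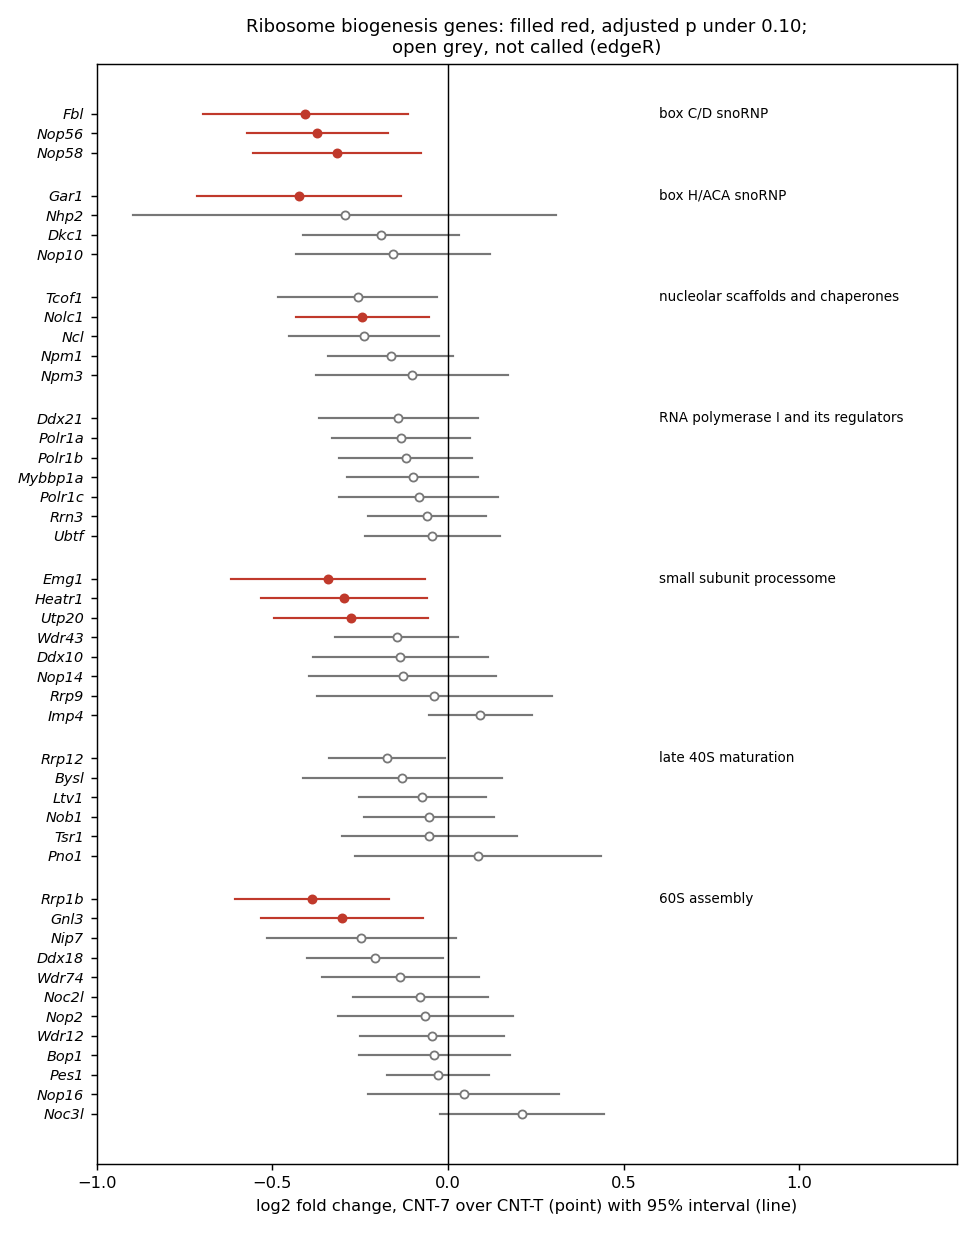
Log2 fold change (CNT-7/CNT-T) for the 45 genes, grouped by role, with its 95% interval (line), from edgeR's quasi-likelihood test on 4 rats per group. Filled red points mark the 10 genes lower at an adjusted p-value under 0.10, and 41 of the 45 points lie left of 0 (40S, small subunit; 60S, large subunit).

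The core proteins of the box C/D snoRNPs, which guide ribose methylation of ribosomal RNA, were all lower in CNT-7 (3 of 3, median log2 fold change -0.37). Of all genes tested, 14.0% were lower. Nop56 (ENSRNOG00000007128), a scaffold protein of the particle, had 65.5, 66.8, 72.4 and 80.2 CPM (counts scaled to a normalised library of 1000000) in CNT-7 rats 3, 5, 10 and 11. It had 82.1, 102, 92.2 and 93.1 CPM in CNT-T rats 1, 2, 12 and 13. The groups did not overlap, although CNT-7 rat 11 came close to CNT-T rat 1. Nop56 fell by 22.8% from 92.2 ± 7.98 to 71.2 ± 6.69 CPM (SD, n = 4), a log2 fold change of -0.37 (standard error, SE, 0.09; adjusted p = 0.016).

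Fbl (ENSRNOG00000019229), which encodes fibrillarin, the methyltransferase of the particle, had 114, 81.7, 106 and 109.8 CPM in the CNT-7 rats and 109, 154, 143 and 139 CPM in the CNT-T rats, in the same order. CNT-7 rat 5 was the lowest rat and CNT-T rat 1 lay among the CNT-7 rats, so that the groups overlapped. Its log2 fold change was -0.41 (SE 0.13, adjusted p = 0.054). Nop58 (ENSRNOG00000016486), the partner of Nop56, had 85.0, 74.8, 98.6 and 88.1 CPM in the CNT-7 rats and 96.9, 103, 105 and 126 CPM in the CNT-T rats. CNT-7 rat 10 exceeded CNT-T rat 1, and the log2 fold change was -0.32 (SE 0.11, adjusted p = 0.066). The call of Fbl was lost without CNT-7 rat 5 or CNT-T rat 2, 12 or 13, and that of Nop58 without CNT-7 rat 3 or 5 or CNT-T rat 12 or 13. Snu13, the remaining core protein, which is outside the 45 genes and was named after its values were seen, was lower as well, with 73.7 ± 3.16 CPM in CNT-7 and 85.0 ± 4.12 CPM in CNT-T (log2 fold change -0.21, adjusted p = 0.046).

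The box H/ACA snoRNPs guide the conversion of uridine to pseudouridine. Of their 4 core proteins, 1 was lower in CNT-7 and 3 did not pass the test, with log2 fold changes between -0.42 and -0.16. Gar1 (ENSRNOG00000061146) had 23.7, 16.9, 24.0 and 23.4 CPM in the CNT-7 rats and 25.7, 32.8, 27.7 and 31.9 CPM in the CNT-T rats. All CNT-7 rats were below all CNT-T rats, and CNT-7 rat 5 lay apart from the other CNT-7 rats. The log2 fold change of -0.42 (SE 0.13, adjusted p = 0.044) was the largest fall of the 45 genes, and without CNT-T rat 2 or 13 its adjusted p-value was 0.12 or 0.10034. Dkc1, which encodes the pseudouridine synthase dyskerin, had 33.4 ± 3.89 CPM in CNT-7 and 38.1 ± 3.02 CPM in CNT-T (log2 fold change -0.19, 95% interval -0.41 to 0.03). Nop10 had a log2 fold change of -0.16 (95% interval -0.43 to 0.12) and passed only without CNT-T rat 13 (adjusted p = 0.097). Nhp2 had only 40 to 103 counts in each rat, so that its interval was the widest of the 45 genes, from -0.90 to 0.31.

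Among the scaffolds and chaperones of the nucleolus, 1 of 5 genes was lower in CNT-7 and all 5 had a log2 fold change below 0. Nolc1 (ENSRNOG00000018704), which encodes a phosphoprotein that binds snoRNPs, had 89.2, 91.4, 107 and 103 CPM in the CNT-7 rats and 107, 125, 111 and 118 CPM in the CNT-T rats. CNT-7 rat 10 reached CNT-T rat 1, and the other CNT-7 rats were below all CNT-T rats. Its log2 fold change was -0.24 (SE 0.08, adjusted p = 0.069), which did not pass without CNT-7 rat 3 or 5 or CNT-T rat 2, 12 or 13. Ncl, which encodes nucleolin, had 414 ± 41.2 CPM in CNT-7 and 489 ± 42.3 CPM in CNT-T (log2 fold change -0.24, adjusted p = 0.11), and Tcof1, which encodes treacle, had 43.0 ± 5.64 and 51.4 ± 4.02 CPM (log2 fold change -0.26, adjusted p = 0.11). Both were just outside the threshold and passed it in DESeq2 (adjusted p = 0.072 and 0.096). There, 3 of the 5 genes were lower, against 11.1% of the genes it fitted. In edgeR, Ncl passed without CNT-7 rat 11 or CNT-T rat 1, and Tcof1 without CNT-7 rat 11 or CNT-T rat 13. Npm1, which encodes the abundant chaperone nucleophosmin, had a log2 fold change of -0.16 (adjusted p = 0.18) and its relative Npm3 one of -0.10 (adjusted p = 0.61).

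The 7 genes of RNA polymerase I and its regulators showed no difference that passed the test. None was called in edgeR or DESeq2, none had an unadjusted p-value under 0.05, and their log2 fold changes lay between -0.14 and -0.04. Ddx21 (ENSRNOG00000043099), an RNA helicase of the nucleolus, had the largest difference, with 172, 159, 217 and 183 CPM in the CNT-7 rats and 185, 217, 201 and 203 CPM in the CNT-T rats. CNT-7 rat 10 was level with the highest CNT-T rat and the groups overlapped (log2 fold change -0.14, 95% interval -0.37 to 0.08, adjusted p = 0.37). It passed only without CNT-7 rat 10 (adjusted p = 0.097). The catalytic subunits Polr1a and Polr1b had log2 fold changes of -0.13 (95% interval -0.33 to 0.06) and -0.12 (-0.31 to 0.07). Those of Polr1c, Rrn3, which brings the polymerase to its promoter, and Ubtf, which binds the ribosomal DNA, were between -0.08 and -0.04, and that of the regulator Mybbp1a was -0.10. The 95% intervals of the 7 genes reached no lower than -0.37 and no higher than 0.15.

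**Figure D2:**
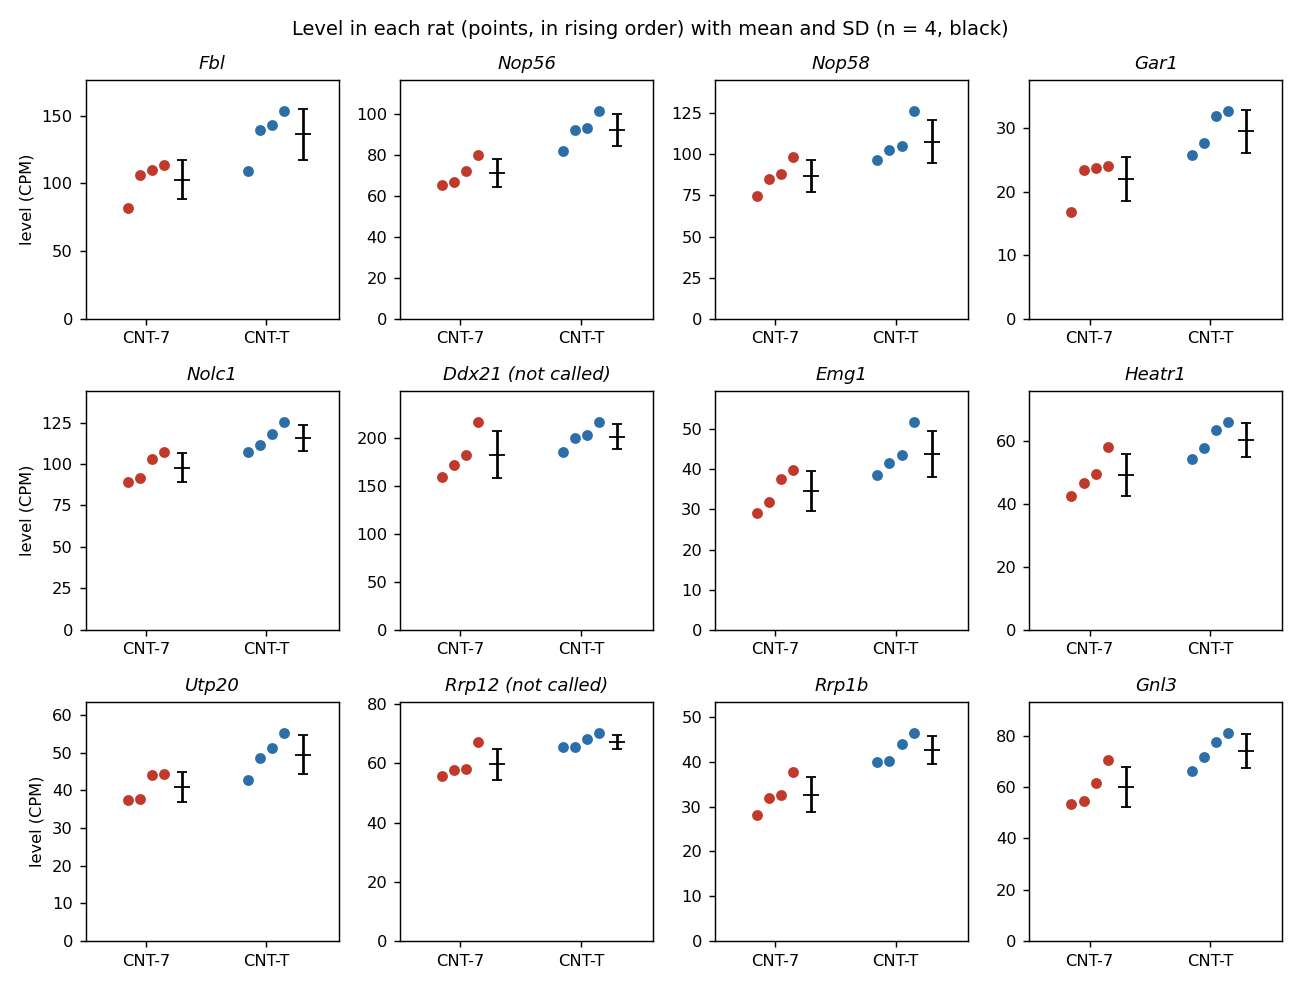
Level in CPM of the 12 genes described rat by rat, each panel from 0, with the 4 CNT-7 rats in red and the 4 CNT-T rats in blue (points in rising order) and mean ± SD in black. Nop56, Gar1 and Rrp1b show no overlap between the groups, and Ddx21 and Rrp12 did not pass the test.

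The small subunit processome is the large particle that cuts and folds the RNA of the small subunit. Of its 8 genes, 3 were lower in CNT-7 (37.5%, against 14.0% of all genes) and 5 did not pass the test. Emg1 (ENSRNOG00000012828), a methyltransferase of the small subunit RNA, had 31.8, 29.2, 37.6 and 39.8 CPM in the CNT-7 rats and 38.5, 51.8, 43.5 and 41.5 CPM in the CNT-T rats (log2 fold change -0.34, SE 0.12, adjusted p = 0.080). Only CNT-7 rat 11 reached the range of the CNT-T rats.

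Heatr1 (ENSRNOG00000047594) and Utp20 (ENSRNOG00000005823) encode long helical repeat proteins of the same particle. Heatr1 had 46.8, 42.4, 58.2 and 49.7 CPM in the CNT-7 rats and 54.4, 63.8, 57.8 and 66.2 CPM in the CNT-T rats (log2 fold change -0.30, SE 0.11, adjusted p = 0.077). CNT-7 rat 10 lay above CNT-T rats 1 and 12. Utp20 had 37.6, 37.4, 44.1 and 44.3 CPM in the CNT-7 rats and 42.7, 51.3, 48.7 and 55.2 CPM in the CNT-T rats (log2 fold change -0.28, SE 0.10, adjusted p = 0.077). CNT-7 rats 10 and 11 lay above CNT-T rat 1. All 3 calls were lost without CNT-7 rat 3 or 5 or CNT-T rat 2, 12 or 13, and that of Heatr1 also without CNT-7 rat 11. The other 5 genes, Wdr43, Ddx10, Nop14, Rrp9 and Imp4, had log2 fold changes between -0.15 and 0.09, and the value above 0 was that of Imp4 (95% interval -0.05 to 0.24).

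None of the 6 factors that finish the small subunit before or after its export passed the test in edgeR or DESeq2, and 1 had an unadjusted p-value under 0.05. This was Rrp12 (ENSRNOG00000048495), which takes part in export, with 57.9, 55.6, 58.0 and 67.3 CPM in the CNT-7 rats and 70.2, 65.4, 68.3 and 65.5 CPM in the CNT-T rats. CNT-7 rat 11 alone lay among the CNT-T rats (log2 fold change -0.17, 95% interval -0.34 to -0.01, adjusted p = 0.13), and without this rat the adjusted p-value was 0.033. Bysl had a log2 fold change of -0.13 and passed only without CNT-7 rat 10 (adjusted p = 0.090). Nob1, the nuclease of the last cut, had 48.5 ± 5.31 CPM in CNT-7 and 50.3 ± 1.41 CPM in CNT-T (log2 fold change -0.05, 95% interval -0.24 to 0.13), and its partner Pno1 had a log2 fold change of 0.09 (95% interval -0.26 to 0.44). Ltv1 and Tsr1 had -0.07 and -0.05.

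Of 12 genes of large subunit assembly, 2 were lower in CNT-7 (16.7%, close to the 14.0% of all genes). The other 10 did not pass the test, and the median log2 fold change of the 12 genes was -0.07. Rrp1b (ENSRNOG00000001194), a nucleolar protein of large subunit processing, had 32.7, 28.2, 32.0 and 37.8 CPM in the CNT-7 rats and 40.1, 46.4, 44.0 and 40.3 CPM in the CNT-T rats. All CNT-7 rats were below all CNT-T rats, and it fell by 23.5% (log2 fold change -0.39, SE 0.10, adjusted p = 0.021). Gnl3 (ENSRNOG00000028461), which encodes the GTPase nucleostemin, had 54.8, 53.5, 70.7 and 61.8 CPM in the CNT-7 rats and 66.2, 71.8, 77.7 and 81.1 CPM in the CNT-T rats. CNT-7 rat 10 exceeded CNT-T rat 1, and the log2 fold change was -0.30 (SE 0.10, adjusted p = 0.068), a call lost without CNT-7 rat 3 or 5 or CNT-T rat 2, 12 or 13.

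The PeBoW complex, formed by Pes1, Bop1 and Wdr12, showed no detectable difference, with log2 fold changes of -0.03, -0.04 and -0.05. Pes1 had 76.9 ± 3.94 CPM in CNT-7 and 78.4 ± 3.30 CPM in CNT-T, and its 95% interval was among the narrow ones, from -0.17 to 0.12. Noc3l had the highest value of the 45 genes, with 48.7 ± 5.88 CPM in CNT-7 and 42.1 ± 4.33 CPM in CNT-T (log2 fold change 0.21, adjusted p = 0.19), whereas Noc2l had -0.08. Nip7 (-0.25) and the helicase gene Ddx18 (-0.21) did not pass with all rats, and passed without CNT-7 rat 10 (adjusted p = 0.025 and 0.066). Wdr74, the methyltransferase gene Nop2 and Nop16 had log2 fold changes of -0.14, -0.06 and 0.04.

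The rats of one group differed from each other across the whole pathway. CNT-7 rat 5 had the lowest level of its group in 30 of the 45 genes and CNT-7 rat 10 the highest in 32, and among the CNT-T rats rat 1 was lowest in 30 genes and rat 2 highest in 24. Each rat was given the mean over the 45 genes of log2 CPM (with 0.5 added) relative to the mean of the 8 rats. This mean was -0.12, -0.22, 0.08 and -0.03 in CNT-7 rats 3, 5, 10 and 11 and -0.03, 0.15, 0.09 and 0.10 in CNT-T rats 1, 2, 12 and 13. CNT-7 rat 10 thus lay within the CNT-T rats, and the groups overlapped. Taken by role, the groups lay apart for the box C/D proteins (at most -0.08 in CNT-7 and at least -0.02 in CNT-T) and for the scaffolds and chaperones (at most -0.02 and at least 0.04), and they overlapped in the other 5 roles. Summed over the 45 genes, the level was 3227 ± 240.3 CPM in CNT-7 and 3617 ± 182 CPM in CNT-T (SD, n = 4).

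**Figure D3:**
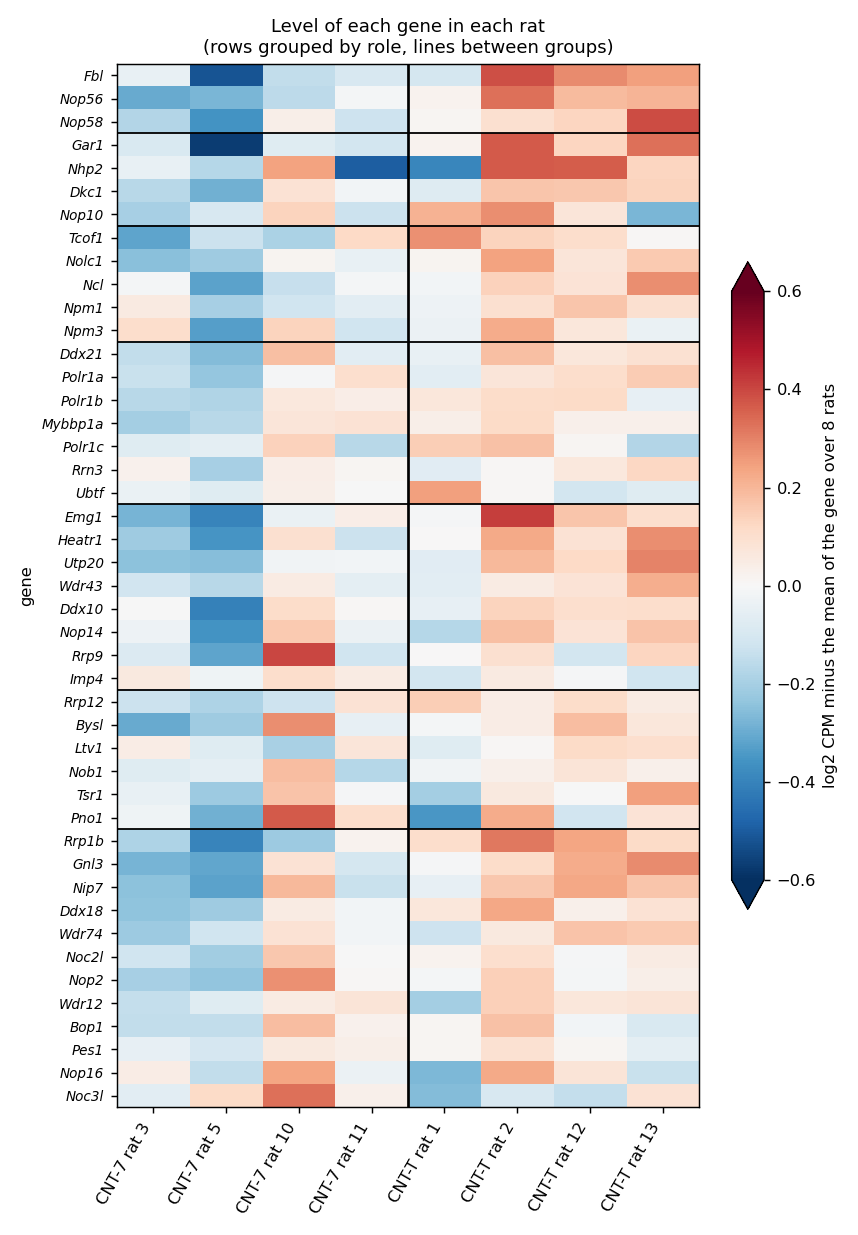
Level of each of the 45 genes (rows, grouped by role) in each rat (columns), as log2 CPM minus the mean of the gene over 8 rats, with blue for lower and red for higher. CNT-7 rat 5 is the lowest of its group in 30 genes, and CNT-7 rat 10 is the highest of its group in 32 genes.

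Proliferation genes moved with the pathway in direction but far more in size. Of 20 listed genes, 19 were in the table and tested. All 19 were lower in CNT-7, against 14.0% of all genes (median log2 fold change of the 19 genes -1.16). Mki67, which encodes the Ki-67 antigen of dividing cells, had 129.9, 92.1, 79.7 and 191 CPM in the CNT-7 rats and 385, 363, 381 and 402 CPM in the CNT-T rats (log2 fold change -1.64, adjusted p = 0.0018). The mean relative level of the 19 genes was -0.46, -0.82, -1.14 and 0.02 in CNT-7 rats 3, 5, 10 and 11, and the CNT-T rats spanned 0.48 to 0.66. CNT-7 rat 10 therefore had the lowest proliferation genes of all rats and the highest ribosome biogenesis genes of its group. Their part in the difference between the groups was not tested.

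**Figure D4:**
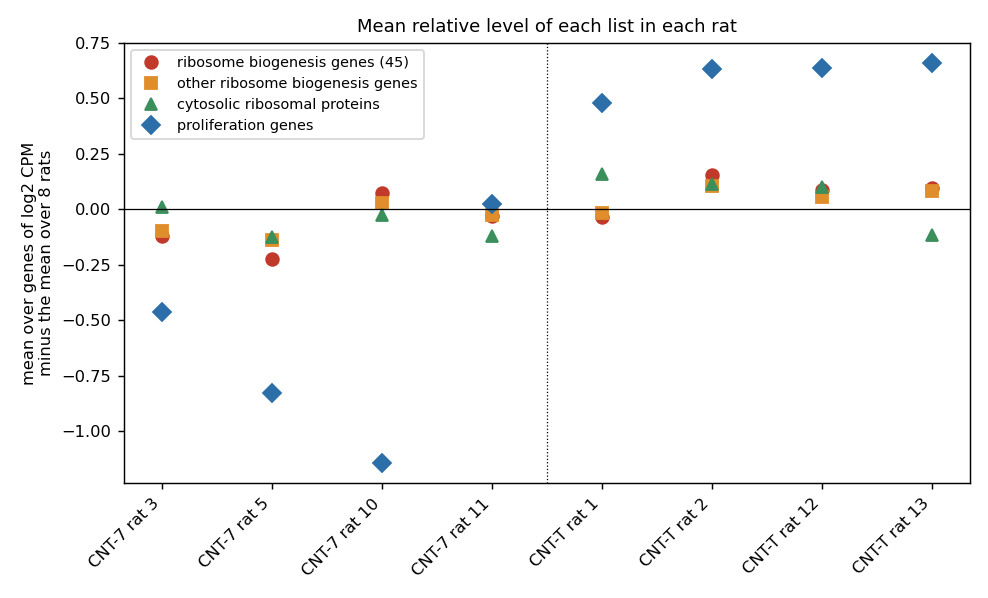
Mean relative level (log2 CPM minus the mean over 8 rats, averaged over the genes of a list) in each rat for the 45 ribosome biogenesis genes, 131 other genes of the pathway, 70 entries for ribosomal proteins and 19 proliferation genes. Proliferation genes span -1.14 to 0.66, whereas the 45 genes span -0.22 to 0.15, with CNT-7 rat 10 at 0.08.

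The rest of the pathway was read from a list of 140 further symbols, of which 133 were in the table and 131 were tested. Of these, 18 (13.7%) were lower in CNT-7, against 14.0% of all genes. Another 3 (2.29%) were higher, against 13.9% of all genes, and the median log2 fold change was -0.11. The number lower was 11 without CNT-7 rat 3 or 5 or CNT-T rat 12, against 11.7%, 10.9% and 10.6% of all genes. It was 12 without CNT-T rat 2 and 27 without CNT-T rat 1, against 11.2% and 13.5%. Lower were 6 of 47 small subunit genes, 7 of 47 large subunit genes and 5 of 24 genes of the exosome and RNase MRP, which degrade and cut the precursor RNA. Of 13 other RNA polymerase I genes, none was lower in edgeR or DESeq2, and 1 had an unadjusted p-value under 0.05 and a log2 fold change below 0. The largest fall that passed the test was that of Exosc6, a subunit of the exosome, with 3.19, 2.85, 3.54 and 4.52 CPM in the CNT-7 rats and 5.44, 6.03, 6.46 and 6.16 CPM in the CNT-T rats (log2 fold change -0.77, adjusted p = 0.0099). All CNT-7 rats were below all CNT-T rats. Exosc8 (log2 fold change -0.75, adjusted p = 0.0037) and Exosc2 (-0.51, adjusted p = 0.0073), named after their values were seen, encode subunits of the same complex and fell further than any of the 45 genes.

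Higher in CNT-7 were Pop5, a subunit of RNase MRP, and, named after their values were seen, Taf1c and Polr2e. Pop5 had 24.2 ± 4.80 CPM in CNT-7 and 17.8 ± 1.85 CPM in CNT-T (log2 fold change 0.45, adjusted p = 0.055), a call lost without CNT-7 rat 5 or 10 or CNT-T rat 1, 12 or 13 (adjusted p between 0.11 and 0.12). Taf1c, a subunit of the selectivity factor that brings RNA polymerase I to its promoter, had 22.2 ± 1.74 and 17.5 ± 1.10 CPM (log2 fold change 0.35, adjusted p = 0.018). Polr2e, a subunit shared by all nuclear RNA polymerases, had 111 ± 9.00 and 89.6 ± 6.99 CPM (log2 fold change 0.31, adjusted p = 0.026).

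Cytosolic ribosomal proteins, the proteins that the pathway assembles, were listed by 80 symbols, and 70 entries of the table were tested. Of these, 5 (7.14%) were lower in CNT-7, against 14.0% of all genes, and the median log2 fold change was -0.14. DESeq2 called 8 lower, against 11.1% of the genes it fitted, and 10 were lower at an unadjusted p-value under 0.05, against 16.5% of all genes. None was higher in edgeR, in DESeq2 or at an unadjusted p-value under 0.05. The largest fall that passed the test was that of Rpl36a, with 192 ± 22.4 CPM in CNT-7 and 248 ± 10.9 CPM in CNT-T (log2 fold change -0.37, adjusted p = 0.016), and the other called genes were Rpl34, Rps12, Rps18 and Rpl7a with -0.26, -0.27, -0.27 and -0.19 (named after their values were seen). The number called lower was unstable. It was 19 without CNT-T rat 13, 12 without CNT-7 rat 3 and 3 without CNT-7 rat 11, against 12.6%, 11.7% and 14.4% of all genes. In the 5 fits without CNT-7 rat 5 or 10 or CNT-T rat 1, 2 or 12 it was 2, against 10.6% to 13.5%. Reads of ribosomal protein genes can be divided with their many processed copies, which adds uncertainty to these values. Its part in the unstable number was not tested.

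**Figure D5:**
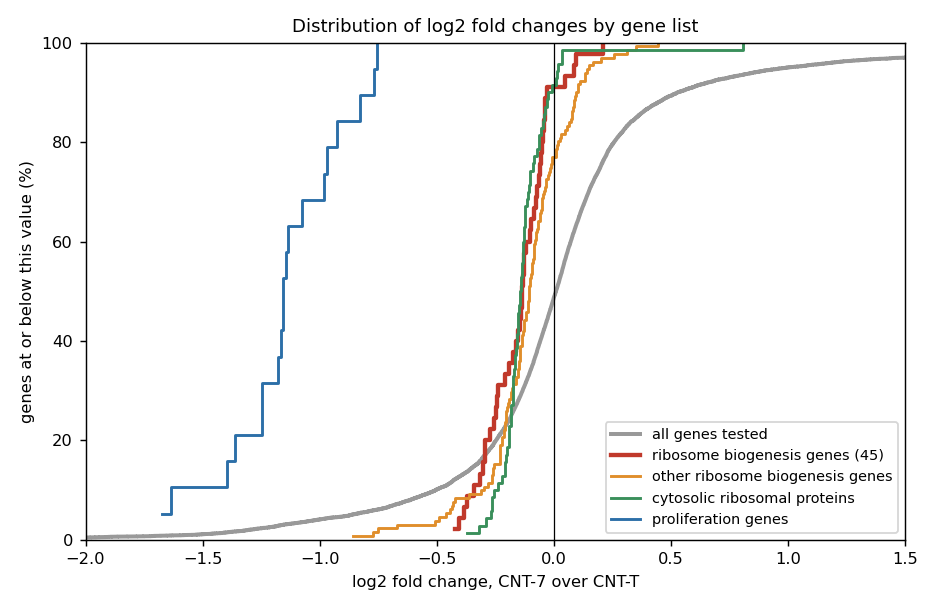
Cumulative share of genes (%) against the log2 fold change (CNT-7/CNT-T), for all 12124 genes tested (grey, running beyond the axis at both ends), the 45 ribosome biogenesis genes (red), other genes of the pathway, ribosomal proteins and proliferation genes. The red line rises close to 0, with a median of -0.14 and no value below -0.42, and the proliferation genes lie apart at a median of -1.16.

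Myc itself (ENSRNOG00000004500) did not differ detectably. It had 82.7, 107, 125 and 90.4 CPM in the CNT-7 rats and 101, 105, 113 and 89.1 CPM in the CNT-T rats (log2 fold change -0.01, 95% interval -0.30 to 0.28, adjusted p = 0.97), and the highest CNT-7 rat was rat 10. Of 12 symbols of the Myc network, 11 were in the table and 10 were tested, of which 1 was lower and 2 were higher in CNT-7 (10% and 20%), against 14.0% and 13.9% of all genes. Mxd4, a partner of Max that is known to oppose Myc, was higher, with 165, 161, 164 and 132 CPM in the CNT-7 rats and 139, 105, 102 and 103 CPM in the CNT-T rats (log2 fold change 0.47, adjusted p = 0.021). The groups overlapped by CNT-T rat 1. Mxi1, of the same family and named after its values were seen, had 29.0 ± 3.74 CPM in CNT-7 and 21.3 ± 2.18 CPM in CNT-T (log2 fold change 0.44, adjusted p = 0.022). Mlx was lower, with 52.0 ± 0.576 against 58.2 ± 3.44 CPM (log2 fold change -0.16, adjusted p = 0.093), a call that held only without CNT-T rat 13 among the 8 fits that left out a rat (adjusted p between 0.13 and 0.21 in the others) and was lost with no filter on low counts (0.14).

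Library totals ranged from 27394995 to 30215063 counts with CNT-7 and from 27195157 to 33732981 counts with CNT-T, and 3 counts, the least taken as detected, correspond to at most 0.11 CPM. All 8 markers of macrophages, the labelled cell type, were tested. They summed to between 15196 and 22324 CPM in CNT-7 and between 23694 and 33908 CPM in CNT-T. Lyz2 made up most of this sum, with 336943 to 590577 counts in the CNT-7 rats and 573394 to 923199 in the CNT-T rats. Csf1r, the next most abundant marker, had at most 53873 counts. Of the 8 markers, Csf1r, Adgre1, Fcgr1a and Cd68 were lower and Cd14 was higher in CNT-7. In bulk RNA, fewer cells of a type and less RNA per cell cannot be told apart. Summed neutrophil markers (8 of 8 in the table) were between 34.02 and 63.1 CPM in CNT-7 and between 28.8 and 89.0 CPM in CNT-T. Csf3r made up most of this sum, with 885 to 1578 counts in the CNT-7 rats and 612 to 1761 in the CNT-T rats. Of 5 tested, S100a8 and Mmp9 were lower in CNT-7. T cell markers (4 of 5 in the table) summed to 8.91 CPM in CNT-7 rat 5 and to between 2.79 and 4.04 CPM in the other rats. Lck made up most of the sum in the other rats, with 60 to 113 counts, and had 137 in CNT-7 rat 5. Cd3e, Cd3d and Cd3g had 63, 28 and 38 counts in CNT-7 rat 5 and at most 14 each elsewhere. B cell markers (4 of 5) summed to 2.78 CPM in CNT-7 rat 5 and at most 0.46 CPM elsewhere. Eosinophil markers (4 of 4, with Epx at 0) were between 0.18 and 9.33 CPM in CNT-7, highest in rat 3, and between 0.11 and 0.36 CPM in CNT-T. Mast cell markers (8 of 8) were between 0.66 and 1.92 CPM in CNT-7 and between 0.03 and 2.50 CPM in CNT-T. Mesothelial markers (6 of 6, with Wt1 and Upk3b at 0) were at most 0.84 CPM in CNT-7 and 0.40 CPM in CNT-T. The part of these cells in the results was not tested.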

How the data were processed

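Peritoneal macrophages from 4 CNT-7 and 4 CNT-T rats were analysed, with groups and rat numbers taken from the sample labels. Following the ARMOR workflow, the authors ran FastQC on the reads, used Salmon with Ensembl rat cDNA (Rnor_6.0) for quantification, and summed transcripts to genes with tximeta. The deposited values are estimated counts, given as whole numbers and not normalized. Versions of their tools are not given in the sources used here.

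Counts of all genes were fitted with edgeR 4.0.16 in R 4.3.3 (TMM normalization, filterByExpr at its defaults of 10 counts and 15 in total, quasi-likelihood test of CNT-7 against CNT-T, Benjamini-Hochberg adjustment over the 12124 genes tested), with a threshold of 0.10 on the adjusted p-value. SEs were derived from the F statistic (absolute log2 fold change over its root). Intervals are 95% intervals from the same fit. P-values rest on the spread between 4 rats per group, which edgeR moderates for each gene with that of all genes tested. Alternatives were DESeq2 1.42.0, other normalizations, filters and thresholds, low or high rat number as a covariate, and leaving out each rat. Scripts were tested on simulated data.

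The 45 genes, their roles and the other lists were chosen with earlier results of these data known, and lists are therefore described by counts and medians without a test. In each role, at most 3 called genes with the largest change are given rat by rat, or the gene with the largest difference where none was called. Estimated counts divide reads between similar transcripts. Without molecular identifiers, the floor of 3 counts covers counting error only. The assembly of the counts differs from that of the RefSeq promoters, which were matched by symbol only.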

Additional observations from a re-analysis of the deposited data

Results flagged for a closer look

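In 94 groups of 4 rats (the 45 genes, Myc and Mki67 in both groups), 4 had a rat whose gap to the nearest other rat, divided by the range of the group, exceeded the critical value of Dixon's test. Chance gives about 1 in 20, or 4.7 of 94. Both genes with such a rat under CNT-7 had it in rat 5. There, Gar1 stood at 16.9 CPM while the remaining rats of its group had 23.4 to 24.0 CPM (ratio of gap to range 0.912), and Rrn3 stood at 56.5 CPM while they had 65.4 to 66.7 CPM (0.871). Under CNT-T, Dkc1 stood at 33.6 CPM in rat 1 and from 39.1 CPM upwards in the others (0.864), and Mybbp1a at 139 CPM in rat 2 and from 130.5 to 130.9 CPM in the others (0.951).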

How the results depend on the processing

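The number of the 45 genes called lower in CNT-7 was 10 with TMM, against 14.0% of all genes. It was between 10 and 12 under DESeq2, other normalizations, other filters and the rat number covariate, against 9.74% to 14.3% of the genes fitted. At an adjusted p-value under 0.05 it was 3, against 10.6%. When each rat was left out, where fewer samples were fitted, it was between 3 and 14, against 10.6% to 14.4%. No gene of the 45 was called higher under any of these settings. The median log2 fold change of the 45 genes stayed between -0.19 and -0.08 in all fits. Other genes of the pathway called lower numbered between 11 and 27 with each rat left out, against 10.6% to 14.4% of all genes. Those called higher numbered 2 or 3, against 10.3% to 14.2%. Over 19 named genes and all alternatives, 240 of 304 values kept their direction and side of the threshold, 58 lost the call (48 of them with a rat left out), 2 gained it and 4 turned direction. These 4 were all of Myc, whose log2 fold change was 0.078 without CNT-7 rat 3, 0.042 without CNT-7 rat 11, 0.0041 without CNT-T rat 2 and 0.041 without CNT-T rat 12, with a range of -0.12 to 0.078 over the fits that left out a rat and no call in any. The alternatives for ribosomal proteins and proliferation genes were added after seeing the data. Of 19 proliferation genes, 18 or 19 were lower in each, against 9.74% to 14.4% of the genes fitted. No paired analysis was possible because no rat number occurs in both groups.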
